A study of Homo sapiens with 145 samples.

Results

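The 10 genes MGMT, ALKBH2, ALKBH3, MPG, APEX1, POLB, XRCC1, NEIL3, UNG and TDG were followed as the enzymes and the scaffold protein that reverse alkylation damage or carry out base excision repair. All 10 of them were measured among the 12070 genes tested, out of 13 probe sets that carry their symbols, and where a gene had several, the one brightest on average over the 145 arrays was read. The cells were HT-1080, an established human fibrosarcoma line, exposed for 24 h in culture. Etoposide (ETP, a topoisomerase II poison) was given at 0.003, 0.01, 0.03, 0.1, 0.3, 1 and 3 µM, methyl methanesulfonate (MMS, a DNA-methylating agent) at 1, 3, 10, 30, 100, 300 and 500 µM, and quercetin (QUE, a plant flavonol) at 1, 3, 10, 30, 60, 80 and 100 µM. Each chemical had its own vehicle group, which received DMSO at the same share of the medium as the dosed cells, and every group was made of this single line. Each etoposide and quercetin group held 5 replicates, and each MMS group 6, except 500 µM with 5.

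Direct reversal and base excision repair deal with small lesions on single bases. A methyltransferase or dioxygenase can restore an alkylated base in place, while in base excision repair a glycosylase cuts out the damaged base, an endonuclease opens the backbone at the empty site, a polymerase fills the gap and a ligase closes it on a scaffold protein. MMS methylates mainly ring nitrogens of purines, the lesions these routes are known for, whereas etoposide leaves DNA breaks held by topoisomerase II. UNG and NEIL3 are known to be made at higher levels in proliferating cells.

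Levels below are log2 values as the authors normalised them, and changes are the mean log2 level of a dosed group minus that of its vehicle group. In bulk RNA, fewer cells making a transcript and less of it in each cell cannot be told apart. A gene was called at a dose when limma's moderated test gave an adjusted p under 0.05 and the change was at least 1.5-fold. The cells had the transcripts of mesenchymal cells, with vehicle means between 9.61 and 13.3 for VIM, FN1, SPARC, CD44 and CDH2, although THY1 stayed below level 4. Of the other classes, EPCAM, CDH1, CLDN4, PTPRC, CD3E, HBB and ITGAM were also below level 4, while the keratins KRT8 and KRT18 lay between 8.62 and 11.2. The array median lay between 3.51 and 3.58 in etoposide sets, 3.08 and 3.17 in MMS sets and 3.33 and 3.41 in quercetin sets, so a level in one set is not compared with a level in another.

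Some arrays stood apart. The 16 arrays numbered 2 of the etoposide and quercetin groups were left out as a set, because those at higher doses followed the other chemical. This held at 0.3, 1 and 3 µM etoposide and at 60, 80 and 100 µM quercetin. For the lower doses it is not shown here, and vehicle arrays have no change of their own. The number 2 array at 3 µM etoposide correlated over genes at 0.902 with the mean change at 100 µM quercetin and at 0.304 with that at 3 µM etoposide. The number 2 array at 100 µM quercetin correlated at 0.890 with the mean change at 3 µM etoposide and at 0.387 with that at 100 µM quercetin. Among the arrays that were used, number 5 at 300 µM MMS correlated at 0.82 with the mean change at 500 µM and at 0.66 with the other arrays of its own dose. Number 4 at that dose also correlated at 0.66 with its own dose, and at 0.52 with 500 µM. Number 3 of quercetin correlated at 0.53 and 0.55 with the other arrays of its dose at 80 and 100 µM, against 0.72 or more for the others. Number 5 at 100 µM MMS correlated at 0.17 with the other arrays of its dose, against 0.55 to 0.73 for the others, and number 1 at 0.03 µM etoposide at 0.07, against 0.53 or more. A dosed replicate, or a number such as number 3, was left out at every dose of a fit at once. The adjusted p without it thus depends on the other doses too. Where leaving out the number of one of these arrays gave or ended a member's call, the value without it stands beside the result.

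Across the 210 combinations of a gene and a dose, 22 were called, 6 higher and 16 lower. That is 10.5%, near the 8.38% of such combinations called over all tested genes, of which 4.07% were higher and 4.30% lower. NEIL3 accounted for 7 of them and UNG for 6, all lower, ALKBH2 for 4 and TDG for 2, all higher, and XRCC1 for 2 and MGMT for 1, all lower. ALKBH3, MPG, APEX1 and POLB were called at none of the 21 doses. In the main fits limma's adjusted p was under 0.05 at 4 doses for ALKBH3, 1 for MPG, 3 for APEX1 and 7 for POLB. Those changes were under 1.5-fold. With the number 2 arrays kept, the calls at the highest doses stood, with NEIL3 at -1.80 and UNG at -0.95 at 3 µM etoposide, and NEIL3 at -2.02, UNG at -0.81, ALKBH2 at 0.60 and TDG at 0.72 at 100 µM quercetin.

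**Figure D1:**
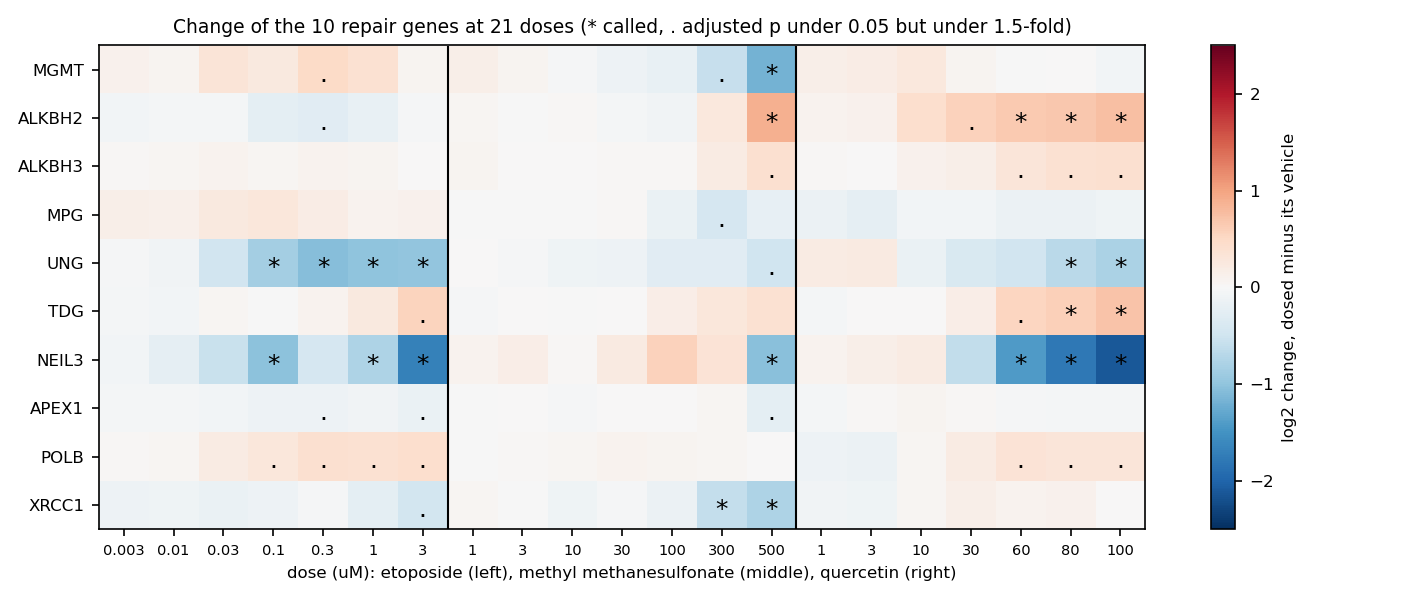
Heat map of the log2 change (dosed minus its own vehicle) of the 10 repair genes, in rows, at the 21 doses in µM, in columns, with etoposide on the left, methyl methanesulfonate in the middle and quercetin on the right. Blue is lower and red higher than vehicle, a star marks a called change and a dot an adjusted p under 0.05 with a change under 1.5-fold. The deepest blue cells are NEIL3 at 100 µM quercetin (-2.12), then at 80 µM quercetin and at 3 µM etoposide (-1.69). The deepest red cell is ALKBH2 at 500 µM MMS (0.88).

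Under etoposide 2 of the 10 genes, NEIL3 and UNG, were ever called, and both were lower. None was called at 0.003, 0.01 or 0.03 µM, where 0%, 0% and 0.63% of all tested genes were called. Both were called at 0.1 µM, UNG alone at 0.3 µM, and both at 1 and 3 µM. Of all tested genes 3.74%, 4.56%, 8.90% and 13.2% were called at those 4 doses, and 2.36%, 1.53%, 3.73% and 6.92% were called lower. At the 2 lowest doses no member had an unadjusted p under 0.05 either, and 118 and 208 of all genes did.

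Under MMS no member was called at 1, 3, 10, 30 or 100 µM, where 0%, 0%, 0%, 0% and 1.61% of all genes were called. From 1 to 30 µM none of the 10 genes had an unadjusted p under 0.05, and between 32 and 127 of all genes did. At 300 µM only XRCC1 was called, lower, against a background of 12.2% of all genes and 7.75% lower. At 500 µM 4 of 10 were called, ALKBH2 higher and MGMT, NEIL3 and XRCC1 lower, where 34.6% of all genes were called, 17.7% higher and 16.9% lower. The members' share at 500 µM thus lay near that of all genes.

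Under quercetin no member was called at 1, 3, 10 or 30 µM, with 0.0331%, 0.0911%, 1.78% and 17.0% of all genes called there. At 60 µM ALKBH2 was called higher and NEIL3 lower. At 80 and at 100 µM ALKBH2 and TDG were called higher and NEIL3 and UNG lower. Of all genes 25.4%, 24.5% and 27.6% were called at 60, 80 and 100 µM, with 12.7%, 11.4% and 13.1% higher and 12.7%, 13.1% and 14.5% lower. The 10 quercetin calls of members over these doses were 6 with the number 2 arrays kept, 7 without dosed replicate 3 and 6 without dosed replicate 4. In limma's F-test over the 7 doses of a chemical, 4 members passed for etoposide (NEIL3, POLB, TDG and UNG), 7 for MMS (ALKBH2, ALKBH3, APEX1, MGMT, MPG, NEIL3 and XRCC1) and 6 for quercetin (ALKBH2, ALKBH3, NEIL3, POLB, TDG and UNG). The same F-test passed 38.3%, 59.3% and 56.8% of all genes.

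MGMT, the methyltransferase that takes alkyl groups from the oxygen of guanine onto itself and is used up in doing so, lies at chr10:129467241-129770983 (GRCh38.p14). It fell with MMS. Its level at 500 µM was 3.94, 4.41, 4.07, 4.29 and 3.41, against a vehicle range of 4.80 to 5.56 with a median of 5.28. Every array at 500 µM lay below every vehicle array, and the change was -1.18 ± 0.16 (SE), or 2.26-fold lower, with limma's adjusted p of 2.2e-08. The values at 500 µM lie close to level 4, the limit used to keep a probe set.

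At 300 µM MMS the MGMT level ranged from 4.40 to 4.84 with a median of 4.67, and the change of -0.58 ± 0.15 (adjusted p = 0.0025) was just under 1.5-fold. It reached 1.5-fold without vehicle replicate 2 (-0.66) or 3 (-0.63), or without dosed replicate 1 (-0.60), 4 (-0.62) or 6 (-0.60). All 6 dosed arrays lay below the vehicle array of their number. From 300 to 500 µM MGMT fell by a further 0.60 (adjusted p = 0.0020), in a comparison of neighbouring doses that was added after the data had been seen and in which 18.7% of all genes were called.

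The other chemicals left MGMT with smaller differences. At 0.3 µM etoposide MGMT had 6.95, 7.33, 7.04, 7.02 and 6.99, against 6.25, 7.06, 6.82, 6.28 and 6.51 in vehicle. All 5 dosed arrays were above the vehicle array of their number although the groups overlapped, and the change of 0.48 ± 0.16 (adjusted p = 0.027 in limma) was under 1.5-fold. Without vehicle replicate 3 it was 0.60 and was called. At 0.03, 0.1 and 1 µM etoposide it was 0.33, 0.24 and 0.37, under 1.5-fold, with limma's adjusted p at 0.29, 0.33 and 0.067. With the replicate number as a block, limma's adjusted p was 0.0010, 0.0084, 1.4e-06 and 4.9e-05 at 0.03, 0.1, 0.3 and 1 µM. The change was 0.07 at 3 µM etoposide, where the block gave 0.46. Over the 7 quercetin doses it lay between -0.07 and 0.26.

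ALKBH2, a dioxygenase that oxidises methyl groups off adenine and cytosine in double-stranded DNA, rose with MMS and with quercetin. At 500 µM MMS it had 7.98, 8.20, 8.20, 8.32 and 8.10, against 7.14 to 7.46 in vehicle with a median of 7.27. The groups did not overlap, and the change was 0.88 ± 0.13, or 1.84-fold higher (limma's adjusted p = 1.4e-07). At 300 µM the change was 0.27 and the highest of the 6 arrays, number 5 at 8.06, was the one that resembled the 500 µM arrays. The others lay at 7.59 or below. Without number 5 the change at 300 µM was 0.17. The step from 300 to 500 µM was 0.61 (adjusted p = 0.00015).

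Under quercetin ALKBH2 had an adjusted p under 0.05 in limma's main fit from 30 µM on. At 10 µM it changed by 0.42, under 1.5-fold, with limma's adjusted p at 0.074. With the replicate number as a block this adjusted p was 0.00093. At 100 µM ALKBH2 had 8.15, 8.49, 8.34, 8.06 and 8.24, against 7.22, 7.59, 7.84, 7.44 and 7.45 in vehicle, and the groups did not overlap. The change was 0.57 at 30 µM, which stayed under 1.5-fold, then 0.66 at 60 µM, 0.67 at 80 µM and 0.75 ± 0.14 at 100 µM, with adjusted p = 0.0013, 0.00014, 0.00013 and 2.6e-05 in limma. At 30 µM it passed 1.5-fold without vehicle replicate 3 or 4 or dosed replicate 1, 5 or 6. Without number 3, which stood apart, ALKBH2 was 0.58 at 60 µM, just under 1.5-fold, and 0.59 at 80 µM and 0.69 at 100 µM, both still called. With the number 2 arrays kept it was 0.53 at 60 µM and 0.50 at 80 µM, and the calls there were lost.

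Etoposide did not raise ALKBH2 to a call at any dose. Its changes lay between -0.28 and -0.03, and that at 0.3 µM, -0.28 ± 0.10, had an adjusted p of 0.040 in limma. With the replicate number as a block, limma's adjusted p was 0.0058 at 0.1 µM, 0.0017 at 0.3 µM and 0.034 at 1 µM, for changes of -0.25, -0.28 and -0.18, all under 1.5-fold. At 3 µM etoposide ALKBH2 had 7.79, 7.71, 7.89, 7.82 and 7.96, against 7.89, 7.89, 8.12, 7.65 and 7.76 in vehicle, and these ranges overlapped.

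ALKBH3, the related dioxygenase that acts on single-stranded DNA and on RNA (chr11:43880831-43920274), moved the same way by less than 1.5-fold. At 500 µM MMS it had 7.26, 7.37, 7.51, 7.70 and 7.39, all above the vehicle range of 6.78 to 7.22, with a change of 0.41 ± 0.10 (adjusted p = 0.00075 in limma). At 100 µM quercetin it had 7.79, 8.07, 8.34, 8.23 and 8.28, against 7.52, 7.74, 8.03, 7.67 and 7.77 in vehicle. All 5 arrays were above the vehicle array of their number, although the ranges overlapped. The change was 0.31, 0.39 and 0.40 at 60, 80 and 100 µM quercetin, with adjusted p = 0.029, 0.0069 and 0.0050. Without number 3 it was 0.24 at 60 µM (adjusted p = 0.10), 0.41 at 80 µM and 0.42 at 100 µM. Over the 7 etoposide doses it lay between 0.02 and 0.09. Over the 21 mean changes, which share vehicle groups, ALKBH2 and ALKBH3 correlated at 0.88.

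**Figure D2:**
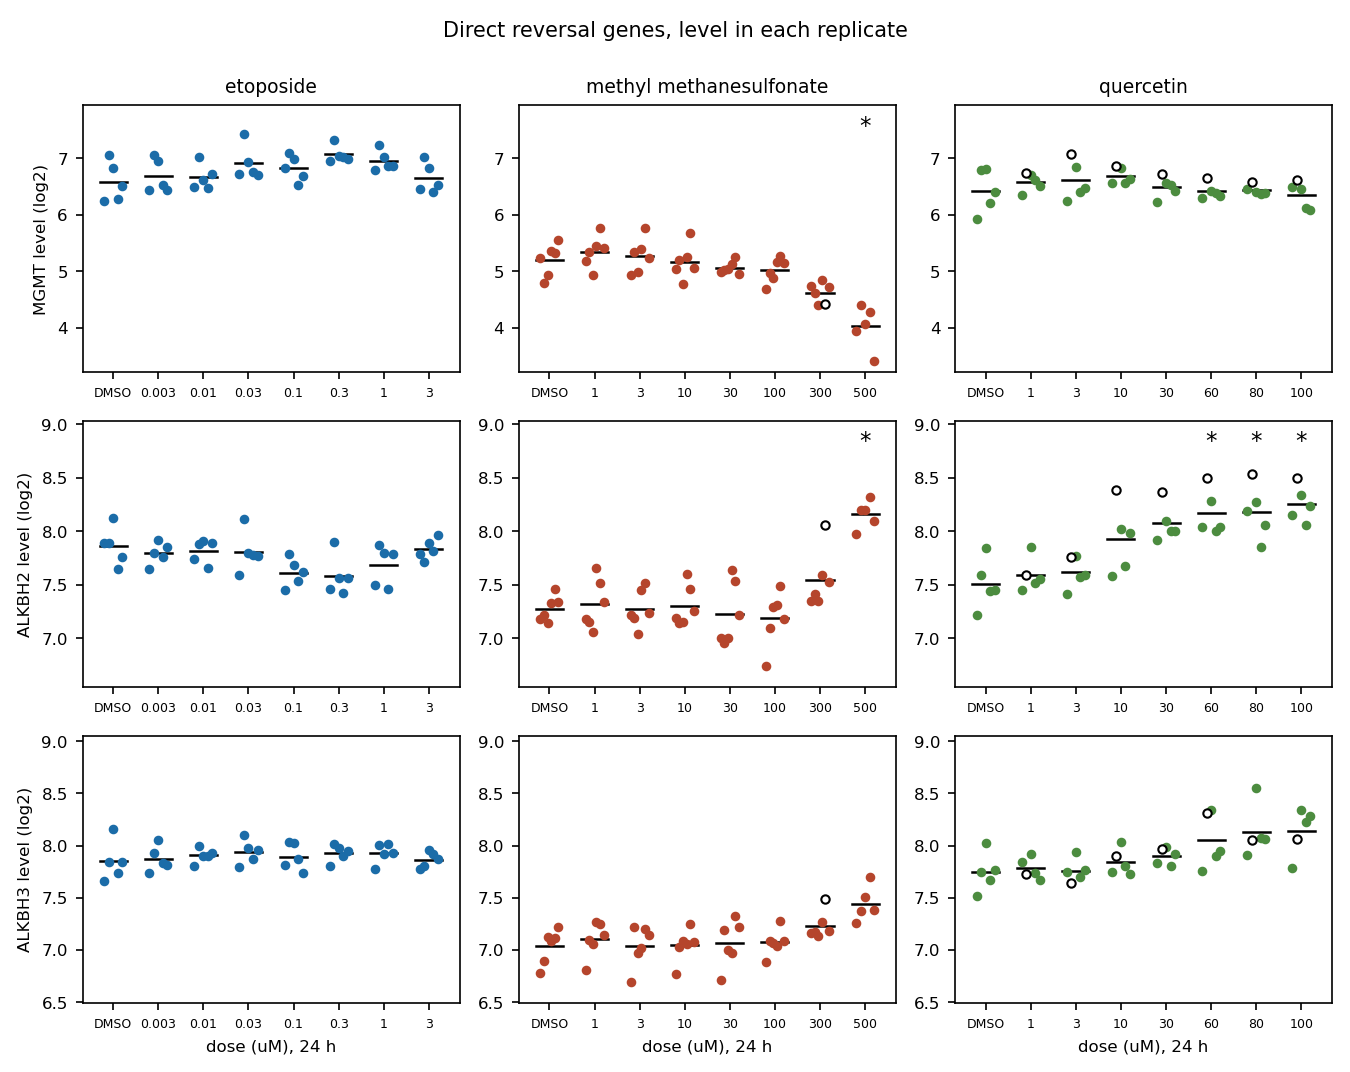
Log2 level (vertical axis) of MGMT, ALKBH2 and ALKBH3, in rows, by dose in µM (horizontal axis) with the DMSO vehicle on the left of each panel, for each chemical in a column. Points are replicates, bars are group means, stars mark called doses and open circles mark number 5 at 300 µM methyl methanesulfonate and number 3 of quercetin. The 5 MGMT points at 500 µM MMS lie between 3.41 and 4.41, below all vehicle points, and the 5 ALKBH2 points there lie between 7.98 and 8.32, above them.

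The plot of levels by dose for the reversal genes shows that MGMT and ALKBH2 separate from vehicle in opposite directions at the highest MMS dose. The panels for etoposide show overlapping points at all doses for ALKBH2 and ALKBH3.

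UNG, the glycosylase that removes uracil from DNA, was the member with the most calls under etoposide. It lies at chr12:109097597-109110992, and ALKBH2 is its neighbour on the other strand at chr12:109088189-109093472, with 4125 bases between the 2 starts. Their promoter sequences, and that of NEIL3, are shown because UNG and NEIL3 both fell under etoposide and quercetin, while ALKBH2, next to UNG, rose under quercetin. Promoter windows from RefSeq (GRCh38.p14), reaching from 250 bases before a start to 50 after it, were found for 9 of the 10 genes, and UNG has 2 of them. The sequences run 5′ to 3′ on the gene's strand and end at the base before the start, and capitals mark matches of the motifs TTTGAA (the cell cycle homology region), CCAAT and GGGCGG (the GC box) on either strand.
NEIL3, chr4:177309624-177309873, plus strand: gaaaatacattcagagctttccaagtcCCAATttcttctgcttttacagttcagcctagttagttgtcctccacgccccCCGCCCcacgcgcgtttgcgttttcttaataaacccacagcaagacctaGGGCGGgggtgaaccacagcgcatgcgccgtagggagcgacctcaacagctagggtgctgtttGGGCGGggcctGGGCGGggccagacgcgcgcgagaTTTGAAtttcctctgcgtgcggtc
UNG, first window, chr12:109097347-109097596, plus strand: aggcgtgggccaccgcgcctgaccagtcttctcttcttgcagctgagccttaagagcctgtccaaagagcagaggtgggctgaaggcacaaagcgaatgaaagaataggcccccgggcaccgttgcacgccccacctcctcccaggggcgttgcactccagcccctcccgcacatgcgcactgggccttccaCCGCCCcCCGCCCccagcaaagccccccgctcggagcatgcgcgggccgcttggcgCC
ALKBH2, chr12:109093473-109093722, minus strand: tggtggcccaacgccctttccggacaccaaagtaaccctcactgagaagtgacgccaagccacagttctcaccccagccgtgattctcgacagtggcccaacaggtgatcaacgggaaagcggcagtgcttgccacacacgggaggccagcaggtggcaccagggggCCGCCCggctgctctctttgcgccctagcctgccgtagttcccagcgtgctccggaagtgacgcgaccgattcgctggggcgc

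The second UNG window lies inside the gene, and a stretch of 30 bases of it holds the one match among the members to the E2F pattern TTTNNCGC, shown in capitals.
UNG, second window, chr12:109098098-109098127, plus strand: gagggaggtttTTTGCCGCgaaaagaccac

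The NEIL3 window holds TTTGAA from 24 to 19 bases before the start, 1 CCAAT and 4 GC boxes, and no E2F match. The first UNG window holds 2 GC boxes and a CCAAT that spans the start, and the second holds the E2F match 63 to 56 bases before its start, 1 TTTGAA, 3 CCAAT and 3 GC boxes. The ALKBH2 window holds 1 GC box and none of the others. Among the other members, TTTGAA also occurs in the XRCC1 window, from 67 to 62 bases before its start. CCAAT also occurs in the windows of ALKBH3, TDG, APEX1, MPG and XRCC1. The GC box also occurs in those of MGMT, MPG and XRCC1. Of all 35116 windows in the table, 6.89% hold the E2F pattern, 15.2% TTTGAA, 1.45% TTCGAA, 34.6% CCAAT, 13.3% TGACNNNGC (the antioxidant response element) and 45.0% the GC box. TTCGAA and TGACNNNGC had no match in any member's window, and a match is a run of letters, not a site shown to be used.

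UNG was called lower under etoposide at 4 doses, from 0.1 to 3 µM. At 0.03 µM its mean was already 8.66, against 9.13 in vehicle, and it was not called. Without dosed replicate 1 the change there was -0.56 (adjusted p = 0.0039 in limma), under 1.5-fold. At 0.1 µM it had 8.56, 8.29, 8.13, 8.12 and 8.28, against 9.39, 8.93, 9.05, 9.00 and 9.28 in vehicle. At 3 µM it had 8.27, 8.01, 7.96, 8.21 and 8.27. The dosed arrays lay below all vehicle arrays at each of the 4 doses, and the mean at 3 µM, 8.14, was no lower than that at 0.3 µM, 8.06.

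The UNG change was -0.85 at 0.1 µM etoposide (adjusted p = 3.5e-05 in limma), -1.07 at 0.3 µM (3.3e-07) and -0.99 ± 0.14 at 3 µM (3.6e-07), with that at 1 µM in between the last pair (5.1e-07). These are falls of 1.81-fold to 2.10-fold. No step between neighbouring etoposide doses was called for UNG. Under quercetin it had 9.16, 7.94, 7.87, 8.23 and 8.17 at 100 µM, against 9.39, 8.96, 8.69, 9.12 and 9.15 in vehicle. Replicate 1 stayed among the vehicle values, and each of the 5 arrays was below the vehicle array of its number.

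UNG was called at 80 µM quercetin (-0.68 ± 0.27, adjusted p = 0.035) and at 100 µM (-0.79 ± 0.27, adjusted p = 0.014). The call at 80 µM was lost without vehicle replicate 1 (-0.60), 5 (-0.67) or 6 (-0.66), and without dosed replicate 3 (-0.53), 4 (-0.45) or 5 (-0.75), while at 60 µM it was gained without dosed replicate 1 (-0.63). At 100 µM without number 3 it was -0.70 and was still called. UNG at 500 µM MMS had 8.18, 8.56, 8.24, 7.53 and 8.50, against a vehicle range of 8.11 to 9.08. The change of -0.49 ± 0.18 (adjusted p = 0.017) was under 1.5-fold, and without vehicle replicate 5 it was -0.61 and was called.

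NEIL3, a glycosylase for oxidised bases in single-stranded DNA that also unhooks cross-links at stalled replication forks (chr4:177309874-177371268), was called at 7 doses over all 3 chemicals. At 3 µM etoposide it had 6.07, 5.18, 5.47, 5.96 and 6.19, against 7.67, 7.35, 7.45, 7.31 and 7.54 in vehicle. All dosed arrays were more than 1 log2 unit below the lowest vehicle array. The change was -1.69 ± 0.21, or 3.22-fold lower (limma's adjusted p = 3.0e-08).

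The etoposide series of NEIL3 was not even. At 0.1 µM it had 6.91, 6.70, 5.79, 6.47 and 6.33, and the change was -1.02 (adjusted p = 0.00066). At 0.3 µM it had 7.43, 6.87, 6.58, 7.18 and 7.21, which overlapped the vehicle arrays, and the change of -0.41 was not called. At 1 µM the change was -0.76 and was called (adjusted p = 0.0042).

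Each of the 5 NEIL3 arrays at 0.3 µM was above the array of its number at 0.1 µM, and the step of 0.61 had an adjusted p of 0.19. The step from 1 to 3 µM, -0.92, was called (adjusted p = 0.013) where 0.389% of all genes were. At 0.03 µM the change was -0.55 with groups that did not overlap, and it was called without dosed replicate 1 (-0.64, adjusted p = 0.042). With the number 2 arrays kept, the change at 0.1 µM was -0.73 and its call was lost (adjusted p = 0.13).

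Under MMS the NEIL3 changes had both signs. At 100 µM it ranged from 6.84 to 7.43 with a median of 7.22, above the vehicle range of 6.36 to 6.76. The change of 0.57 ± 0.23 was not called, and without dosed replicate 5 it was 0.59 and was called. At 300 µM 5 arrays lay between 7.12 and 7.33 and number 5 lay at 5.50. The change was 0.34 with number 5 and was not called. Without dosed replicate 5, at this and all other doses, it was 0.63 and was called (adjusted p = 6.2e-05 in limma).

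NEIL3 at 500 µM MMS had 5.65, 5.90, 5.87, 4.25 and 6.23, all below the vehicle range. The change was -1.05 ± 0.23 (adjusted p = 0.00015), or 2.07-fold lower, and the step from 300 to 500 µM was -1.39 (adjusted p = 4.3e-06). The lowest of these arrays was again number 5, close to level 4.

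The largest NEIL3 changes of the 21 doses came with 80 and 100 µM quercetin, where replicates spread widely. At 100 µM NEIL3 had 6.97, 4.38, 4.20, 5.11 and 5.04 in replicates 1, 3, 4, 5 and 6, against 7.53, 7.27, 7.00, 7.30 and 7.22 in vehicle. Replicate 1 was only just below the vehicle range, and the SD of the dosed group was 1.10, against 0.19 in vehicle. The change was -2.12 ± 0.56, or 4.36-fold lower (adjusted p = 0.0019 in limma). The values of 4.38 and 4.20 lie close to level 4, the limit used to keep a probe set.

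Replicate 3 reached its lowest NEIL3 level, 3.30, at 60 µM, where replicates 1, 5 and 6 were at 6.95, 6.88 and 6.77. The value of 3.30 lies below level 4 and below the quercetin array medians of 3.33 to 3.41. The change at 60 µM was -1.43 (adjusted p = 0.035), and without number 3 it was -0.79 and not called (adjusted p = 0.13). That call was also lost without dosed replicate 4 (-1.29), without vehicle replicate 1 (-1.36), 3 (-1.42), 5 (-1.42) or 6 (-1.44), and with the number 2 arrays kept (-1.21). At 80 µM the change was -1.79 (adjusted p = 0.0089), -1.51 and called without number 3, and -1.42 and not called without dosed replicate 4 (adjusted p = 0.065). At 100 µM it was -1.94 without number 3 and was called.

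**Figure D3:**
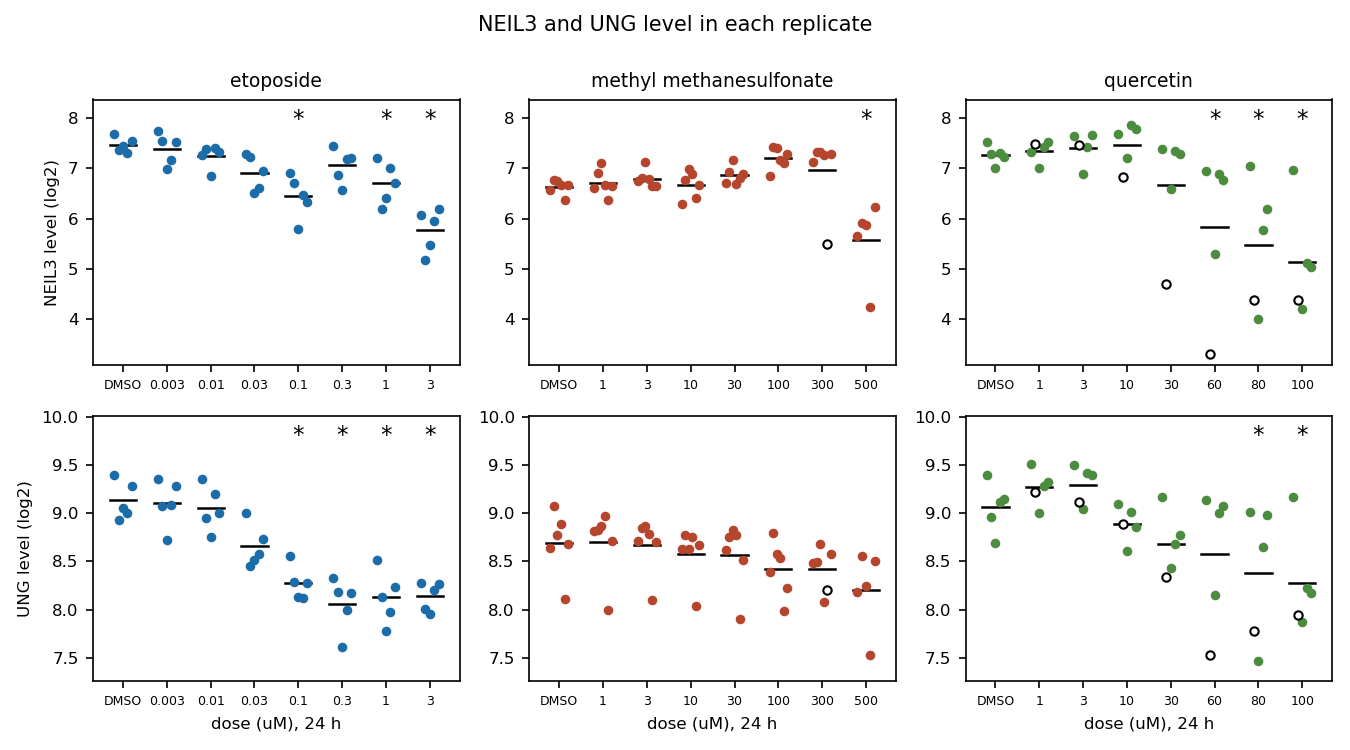
Log2 level (vertical axis) of NEIL3 (top row) and UNG (bottom row) by dose in µM (horizontal axis), with the DMSO vehicle on the left of each panel and each chemical in a column. Points are replicates, bars are group means, stars mark called doses and open circles mark number 5 at 300 µM methyl methanesulfonate and number 3 of quercetin. The UNG points under etoposide from 0.1 µM on lie below all vehicle points, and the NEIL3 points at 100 µM quercetin spread from 4.20 to 6.97.

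The plot of NEIL3 and UNG levels shows the plateau of UNG from 0.1 µM etoposide on, beside the fall of NEIL3 at 0.1 µM, its higher level at 0.3 µM and its lowest level at 3 µM.

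TDG, the glycosylase for thymine or uracil opposite guanine that also excises oxidised forms of methylcytosine (chr12:103965872-103988874), rose with quercetin. At 100 µM it had 8.97, 9.28, 9.07, 8.94 and 9.05, against 8.87, 8.20, 8.10, 8.27 and 8.33 in vehicle. The groups did not overlap, and the change was 0.71 ± 0.18 (adjusted p = 0.0010 in limma), or 1.64-fold higher. Replicate 1 moved least, since its vehicle array was already at 8.87.

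At 60 µM quercetin the TDG change of 0.53 was under 1.5-fold, and was called without vehicle replicate 1 (0.66) or dosed replicate 5 (0.62). At 80 µM it was 0.60 (adjusted p = 0.0053), just over 1.5-fold, and that call was lost without vehicle replicate 3 (0.56), 4 (0.54) or 5 (0.58), or without dosed replicate 1 (0.58) or 4 (0.51), and with the number 2 arrays kept (0.58). Without number 3 TDG was still called, at 0.59 at 80 µM and 0.66 at 100 µM. TDG is read by 2 probe sets, and with their mean in place of the brighter one the changes were 0.46 at 80 µM and 0.54 at 100 µM, neither of them called. TDG at 3 µM etoposide had 9.52, 8.57, 8.97, 9.15 and 9.19, against 8.99, 8.30, 8.29, 8.37 and 8.67 in vehicle, each array above the vehicle array of its number.

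That change of 0.55 ± 0.17 (adjusted p = 0.0096) was under 1.5-fold. It was called without vehicle replicate 1 (0.67) or 6 (0.59), without dosed replicate 3 (0.68), and with the number 2 arrays kept (0.65). The TDG change of 0.37 at 500 µM MMS was not called. The probe sets chosen for UNG, TDG and APEX1 are of the kind that may match more than one transcript, and whether their pseudogenes add to the signal was not tested.

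MPG, the glycosylase for alkylated purines such as methyladenine (chr16:77007-85846), was called at no dose. Its largest change was at 300 µM MMS, where it ranged from 8.19 to 8.92 with a median of 8.44, against 8.59 to 9.24 with a median of 8.92 in vehicle. All 6 arrays were below the vehicle array of their number, and the change of -0.42 ± 0.13 (adjusted p = 0.0088 in limma) was under 1.5-fold. Without dosed replicate 5 at all doses, whose array at 300 µM resembled the 500 µM arrays, it was -0.51 (adjusted p = 0.00075). At 500 µM MMS the change, with all 5 arrays used, was -0.20. Its changes lay between 0.09 and 0.29 under etoposide and between -0.22 and -0.07 under quercetin. With the replicate number as a block, limma's adjusted p was 0.00014, 7.7e-06, 0.0013 and 0.034 at 0.03, 0.1, 0.3 and 3 µM etoposide. At 1 µM it was 0.094.

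APEX1, the endonuclease that opens the backbone at a site without a base (chr14:20455226-20457767), had changes between -0.25 and 0.06 over the 21 doses and no call. At 500 µM MMS it had 11.00, 11.16, 10.81, 10.58 and 10.82, against 11.02 to 11.35 in vehicle, with a change of -0.25 ± 0.07 (adjusted p = 0.0026 in limma). At 3 µM etoposide the change was -0.17 ± 0.05 (adjusted p = 0.0045). Under quercetin it lay between -0.04 and 0.06, with no adjusted p under 0.05.

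POLB, the polymerase that fills the gap left by an excised base and trims the sugar remnant, was higher by less than 1.5-fold under etoposide. At 3 µM it had 9.57, 9.59, 9.74, 9.72 and 9.74, against 9.13, 9.20, 9.49, 9.09 and 9.35 in vehicle, and the groups did not overlap. The changes were 0.27, 0.40, 0.39 and 0.42 ± 0.08 at 0.1, 0.3, 1 and 3 µM, with adjusted p = 0.013, 0.00024, 0.00016 and 3.4e-05 in limma. Under quercetin it was 0.35, 0.31 and 0.30 at 60, 80 and 100 µM, with overlapping groups and adjusted p = 0.0098, 0.023 and 0.024. Under MMS its changes lay between -0.01 and 0.09.

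XRCC1, the scaffold that brings the polymerase and the ligase to the nick (chr19:43543311-43575527), fell with MMS. At 500 µM it had 4.13, 5.16, 4.83, 4.26 and 4.08, against 4.77 to 5.60 in vehicle with a median of 5.24. The ranges overlapped, each array was below the vehicle array of its number, and the change was -0.76 ± 0.19 (adjusted p = 0.00046 in limma), or 1.70-fold lower. At 300 µM XRCC1 ranged from 3.95 to 5.35 with a median of 4.59. Number 5, which resembled the 500 µM arrays, was the lowest. The lower XRCC1 values at both doses lie close to level 4, the limit used to keep a probe set.

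The XRCC1 change at 300 µM, -0.59 (adjusted p = 0.0074), was just over 1.5-fold. Its call was lost without number 5 (-0.45), without dosed replicate 3 (-0.56) or 6 (-0.54), and without vehicle replicate 4 (-0.53) or 5 (-0.54). At 3 µM etoposide it had 5.39, 5.55, 5.62, 5.32 and 5.17, all below the vehicle values of 5.69, 6.10, 6.03, 5.85 and 5.65. The change of -0.46 ± 0.14 (adjusted p = 0.0069) was under 1.5-fold. Under quercetin it lay between -0.10 and 0.15.

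**Figure D4:**
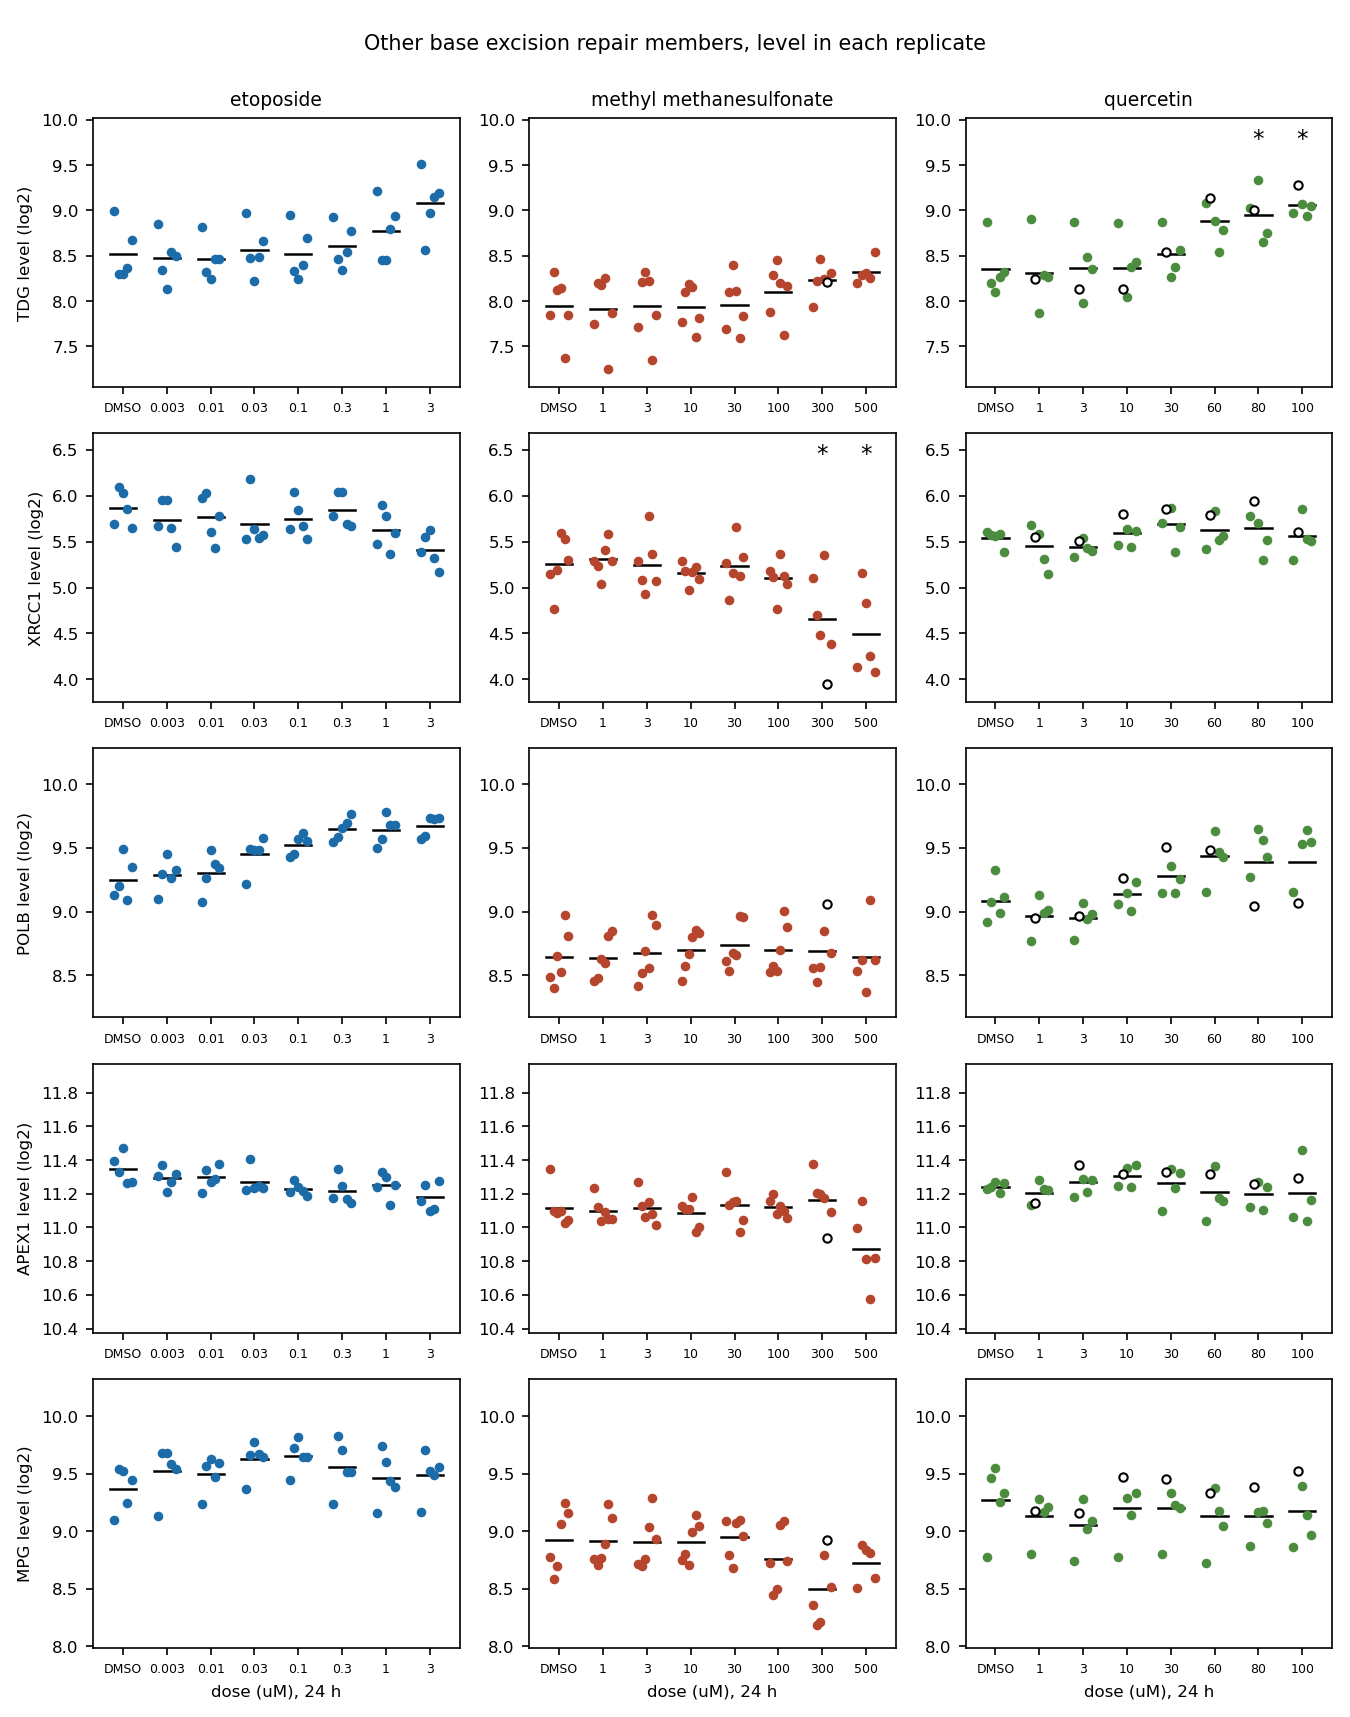
Log2 level (vertical axis) of TDG, XRCC1, POLB, APEX1 and MPG, in rows, by dose in µM (horizontal axis), with the DMSO vehicle on the left of each panel and each chemical in a column. Points are replicates, bars are group means, stars mark called doses and open circles mark number 5 at 300 µM methyl methanesulfonate and number 3 of quercetin. TDG is called at 80 and 100 µM quercetin and XRCC1 at 300 and 500 µM MMS, while the APEX1 points lie between 10.58 and 11.47 throughout.

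The plot of the other base excision repair genes shows TDG near level 9 at the highest quercetin doses, with an SD of 0.27 at 80 µM and 0.13 at 100 µM against 0.30 in vehicle, and XRCC1 spreading downward at 300 and 500 µM MMS.

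The chemicals were then set against each other at their highest doses, 3 µM etoposide, 500 µM MMS and 100 µM quercetin, through the difference of their changes in 1 fit. The doses are not matched in toxicity, and of the 30 differences 5 were called. ALKBH2 differed by -0.91 ± 0.18 between etoposide and MMS (adjusted p = 7.9e-06 in limma) and by -0.78 ± 0.18 between etoposide and quercetin (adjusted p = 0.00027), and between MMS and quercetin by 0.14 ± 0.18, which was not called. MGMT differed by 1.24 ± 0.22 between etoposide and MMS (adjusted p = 1.6e-06) and by -1.10 ± 0.22 between MMS and quercetin (adjusted p = 1.9e-05). XRCC1 differed by -0.78 ± 0.22 between MMS and quercetin (adjusted p = 0.0022). Of all genes 30.5% were called between etoposide and MMS, where 2 members were, 23.4% between etoposide and quercetin, where 1 was, and 28.2% between MMS and quercetin, where 2 were. With the number 2 arrays kept, the ALKBH2 difference between etoposide and quercetin was -0.58 and its call was lost (adjusted p = 0.12). In that fit 1 of all genes was called between etoposide and quercetin, against 2828 without those arrays.

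For UNG and TDG no difference between chemicals was called, so the pattern of calls by chemical is not shown to differ for them. UNG differed by -0.50 ± 0.29 between etoposide and MMS (adjusted p = 0.16). NEIL3 differed by 1.08 ± 0.52 between MMS and quercetin (adjusted p = 0.088), and with the replicate number as a block this was 1.05 and was called (adjusted p = 0.017). It was also called without dosed replicate 1 (1.53) or 5 (1.40).

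Many genes of DNA replication and of entry into S phase were called lower at the etoposide doses where UNG was. This list of 29 genes, all measured, had 23 lower calls at 0.1 µM etoposide, 13 at 0.3 µM, 14 at 1 µM and 19 at 3 µM, and no higher call. Its median change was -0.92, -0.58, -0.68 and -0.91 at those doses, against a median over all genes of 0.01, 0.01, 0.02 and 0.01. At 3 µM etoposide MCM6, a subunit of the replicative helicase, changed by -2.37, POLA1, the catalytic subunit of DNA polymerase alpha, by -2.20, GINS2 by -2.00 and MCM3 by -1.88. Its median was lower at 0.1 µM than at 0.3 µM, as the NEIL3 change was, while the UNG change was not.

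At 100 µM MMS none of the 29 replication genes was called and their median change was 0.13. At 300 µM 4 were higher and 3 lower, and at 500 µM 3 were higher and 12 lower with a median of -0.48. At 100 µM quercetin 11 were lower, none higher, and the median was -0.48, with CCNA2, a cyclin of S phase and mitosis, at -2.41 and POLE2 at -2.15. At 60 µM quercetin 8 were lower and 1 higher, and at 80 µM 8 were lower. The part of the replication list in the UNG and NEIL3 changes was not tested.

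**Figure D5:**
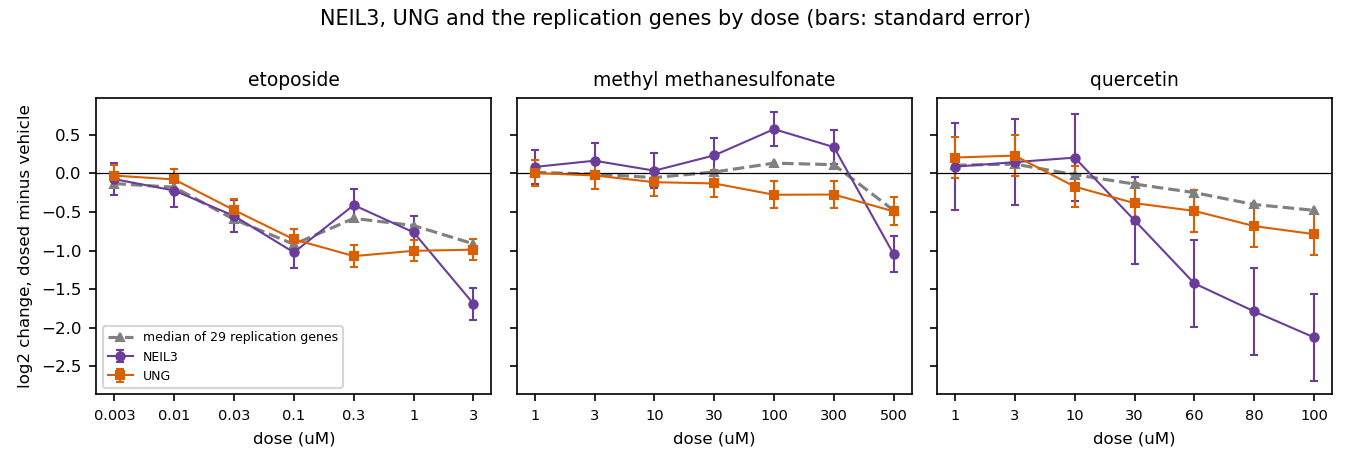
Log2 change (vertical axis, dosed minus vehicle) of NEIL3 and UNG with bars of 1 standard error, and the median change of 29 replication genes (grey dashed line), by dose in µM (horizontal axis) for each chemical. Under etoposide the median is -0.92 at 0.1 µM and -0.58 at 0.3 µM, beside NEIL3 at -1.02 and -0.41 and UNG at -0.85 and -1.07, and under quercetin NEIL3 reaches -2.12 against a median of -0.48.

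The plot of replication genes shows NEIL3 close to the list's median up to 1 µM etoposide and below it at 3 µM, and below it under quercetin from 30 µM on.

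Among all genes tested, the 21 mean changes of NEIL3 were most like those of CEP55 and MAD2L1, genes of cell division (Pearson r of 0.99 and 0.97). Those of UNG were most like those of GINS2 and MCM6 (0.96 and 0.96), both in the replication list. Those of ALKBH2 were most like those of ZNF777 and JRKL (both 0.98). Between members, UNG and POLB had the strongest relation, at -0.93, and UNG and NEIL3 correlated at 0.71. The 21 points share vehicle groups within a chemical, so these values describe the shapes and carry no test.

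Other genes of the same pathways or families were read at the highest doses, where 13.2%, 34.6% and 27.6% of all genes were called for etoposide, MMS and quercetin. Of 19 further base excision and single-strand break repair genes measured out of 22, 2 were higher and 1 lower at 3 µM etoposide, 2 higher and 4 lower at 500 µM MMS, and 2 lower at 100 µM quercetin. PCNA, the sliding clamp of replication and repair, rose by 0.82 and APTX, which frees blocked DNA ends, by 0.60 at 3 µM etoposide, where TDP1, which clears topoisomerase from DNA ends, changed by -0.83. With 500 µM MMS TDP1 changed by -1.03, DUT, which keeps uracil out of DNA, by -0.90, LIG1 by -0.84 and APTX by 0.79. At 100 µM quercetin the glycosylase NTHL1 changed by -0.87 and HMGB1 by -0.67. The median change of these 19 genes was -0.24 at 3 µM etoposide, 0.11 at 500 µM MMS and -0.32 at 100 µM quercetin.

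A further list held 10 genes, all measured, of the dioxygenase family of ALKBH2 and of the ASCC proteins, not all of them known for DNA repair. None was called at 3 µM etoposide, 3 were higher and 1 lower at 500 µM MMS, and 1 was higher at 100 µM quercetin. ALKBH1 and ALKBH6, of the same dioxygenase family as ALKBH2, changed by 1.31 and 0.95 at 500 µM MMS, ASCC2, a partner of the helicase that works with ALKBH3, by 0.75, and FTO by -0.76. ALKBH1 changed by 0.59 at 100 µM quercetin. Of 6 mismatch repair genes measured out of 8, EXO1 and MSH6 fell at 3 µM etoposide (-0.99 and -0.90), PMS2 rose at 500 µM MMS (0.98), and EXO1 and PMS1 fell at 100 µM quercetin (-1.62 and -1.11). Of 9 measured housekeeping genes out of 11 none was called at 3 µM etoposide, TBP rose and HPRT1 fell at 500 µM MMS (0.61 and -1.02), and HPRT1 fell at 100 µM quercetin (-0.79).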

How the data were processed

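The values are log2 probe set summaries that the authors deposited for all 145 arrays. Per the labels' protocols, RNA was taken from cells in wells, amplified with a 3′ in vitro transcription kit and labelled with biotin, and per the submitters' processing notes Partek and GCRMA were used. Versions are not given in the sources used here. Signal on arrays cannot be counted, so the number of arrays limits the precision. From these values, probe sets at log2 4 or more on at least 5 arrays were kept (27102 of 54613), symbols came from the platform annotation with updates from RefSeq, and each gene was read from its brightest kept probe set by the mean of the 145 arrays, giving 12070 genes. Of all probe sets 40914 carry 1 symbol, 864 several and 12835 none. Arrays of 1 group and number were averaged, which left 127 replicates from 129 arrays after the 16 arrays numbered 2 were set aside.

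Each chemical was fitted over its vehicle and 7 doses with limma 3.58.1 (lmFit, eBayes with a trend) in R 4.3.3, and p-values were adjusted by Benjamini-Hochberg over all 12070 genes. The main fits left the replicate number out, and it entered only where a block is named. A call needs an adjusted p under 0.05 and a change of at least 1.5-fold. Differences between chemicals came from 1 fit over all groups. The fit was tested on simulated data. The labels do not say whether replicates came from separate cultures, so p-values measure the spread between arrays, which may be technical. Members and lists were chosen with earlier results of these data known. Besides the members, the genes named from each other list were the called ones with the largest change at a chemical's highest dose, at most 4, and for members called at 3 or more doses the 2 genes most like them over the 21 mean changes. Within a chemical, deviations of same-numbered arrays from their group means correlated at 0.52 for etoposide, 0.51 for MMS and 0.34 for quercetin on average. Every pair of a dosed and a vehicle array of the same number was above 0.1 at all etoposide doses. The same held at MMS doses up to 300 µM and at quercetin doses up to 30 µM. Plots were drawn with matplotlib 3.10.9.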

Additional observations from a re-analysis of the deposited data

Results flagged for a closer look

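In each of the 240 groups of 1 gene and 1 dose or vehicle, the highest and the lowest replicate were compared with the rest by Dixon's ratio, and 18 groups held a replicate far from the others. Chance alone marks about 1 in 20 groups. Under MMS, number 5 was the low array for UNG at 1 µM (8.00), 3 µM (8.11), 10 µM (8.04) and 30 µM (7.91), and it was also the lowest UNG array in vehicle (8.11). At 300 µM MMS the same number was low for NEIL3 (5.50) and high for ALKBH2 (8.06). At 3 µM MMS number 3 was high for NEIL3 (7.13), and in the MMS vehicle number 1 was high for APEX1 (11.35).

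At 0.03 µM etoposide number 3 was high for APEX1 (11.41) and XRCC1 (6.18), and number 1 low for POLB (9.22). Number 1 was low for MPG at 0.003 µM etoposide (9.13) and at 1 µM quercetin (8.80). Number 3 was high for MGMT at 0.3 µM etoposide (7.33), and number 4 low for NEIL3 at 0.01 µM (6.85). At 100 µM quercetin number 1 was high for UNG (9.16), at 80 µM number 4 was high for ALKBH3 (8.55), and in the quercetin vehicle number 6 was low for XRCC1 (5.39). The cause of these values was not tested.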

How the results depend on the processing

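Members' calls numbered 7 for etoposide, 5 for MMS, 10 for quercetin and 5 for differences between chemicals. With no fold limit they numbered 17, 10, 18 and 8, by construction. With the number 2 arrays kept they numbered 7, 5, 6 and 4. Leaving out each replicate in turn, from the vehicle or from all doses at once, gave 7 to 8, 4 to 6, 6 to 11 and 5 to 6. No filter, a stricter filter, quantile normalization, the mean of probe sets, no variance trend, the replicate block and leaving out arrays whose titles end in -nf or -o (a suffix the labels do not explain) gave 7 to 8, 5, 8 to 10 and 5 to 6. Of single results under these settings 4673 stayed on their side of the call limits, 54 gained a call and 33 lost one, and none called changed sign. Dropping the fold limit, which can only add calls, gave 26 of the gains. The replicate block changed 1 member call, NEIL3 between MMS and quercetin (1.05). Leaving out -nf and -o arrays took TDG at 80 µM quercetin to 0.52, and gave ALKBH2 at 30 µM (0.65) and that NEIL3 difference (1.45) a call. Quantile normalization gave TDG at 3 µM etoposide a call (0.60).

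Over all genes, keeping the number 2 arrays moved the calls to 14, against 76, at 0.03 µM etoposide, to 136, against 451, at 0.1 µM, to 24, against 215, at 10 µM quercetin, and to 1323, against 2057, at 30 µM. The block gave 183 calls at 0.03 µM etoposide, 295, against 194, at 100 µM MMS and 333 at 10 µM quercetin. With no fold limit 4997, 7387 and 6089 genes passed at the highest doses, against 1589, 4173 and 3332. With 5 or 6 replicates a group, changes near 1.5-fold gain or lose a call easily.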

Other observations

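The number 2 arrays of etoposide and quercetin gave these values for the members, each a single array minus the vehicle value numbered 2 of that chemical, with no replicate. For etoposide that value is the mean of 2 vehicle arrays, and for quercetin it is 1 array. The array labelled 3 µM etoposide had NEIL3 at -2.37, TDG at 1.13, UNG at -0.75, MGMT at -0.68, ALKBH3 at 0.44, XRCC1 at 0.33 and ALKBH2 at 0.24. The array labelled 100 µM quercetin had NEIL3 at -1.49, UNG at -0.95, TDG at 0.75, XRCC1 at -0.51, MGMT at -0.28 and ALKBH2 at -0.13. In these arrays, in that order, MPG was at -0.47 and -0.35, APEX1 at -0.10 and -0.21 and POLB at 0.31 and 0.27. ALKBH3 was at 0.07 in the array labelled 100 µM quercetin. NEIL3, UNG, MGMT, MPG and APEX1 were lower and TDG, POLB and ALKBH3 higher in both, while ALKBH2 and XRCC1 had opposite signs.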
